A study of Mus musculus with 48 samples.

Results

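The 10 alveolar type 1 cell genes described here are Ager (ENSMUSG00000015452), Hopx (ENSMUSG00000059325), Aqp5 (ENSMUSG00000044217), Pdpn (ENSMUSG00000028583), Cav1 (ENSMUSG00000007655), Rtkn2 (ENSMUSG00000037846), Akap5 (ENSMUSG00000021057), Clic5 (ENSMUSG00000023959), Emp2 (ENSMUSG00000022505) and Vegfa (ENSMUSG00000023951). They were taken from a count table of 42548 mouse genes by their Ensembl identifiers, and all 10 were counted in every comparison. RNA was measured in 24 mice, each of which gave 1 epithelial library and 1 whole lung library, so that 48 libraries were compared. In RiboTag mice the ribosomes of selected cells bear an HA epitope, so that precipitation with anti-HA recovers the RNA those ribosomes hold. The labels describe both kinds of library with the same precipitation and the same 3' end kit (Lexogen QuantSeq Forward), and do not say how the preparation of whole lung libraries differed. The promoter that drove the tag, the mouse strain, the age and the time after exposure are not stated in the labels.

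There were 4 arms. The saline arm had 6 mice given saline and a control treatment, 3 in batch S135 and 3 in batch S151. The bleomycin control arm had 9 mice given bleomycin, a drug that injures the lung, and a control treatment, with 3 in S061, 2 in S135 and 4 in S151. The KIRA8 arm had 5 mice given bleomycin and KIRA8, a kinase inhibitor that lowers the RNase activity of the endoplasmic reticulum stress sensor IRE1α, with 3 in S061 and 2 in S135. The 3G9 arm had 4 mice given bleomycin and 3G9, an antibody to the TGFβ-activating integrin αvβ6, all in S151. The control treatment was labelled Vehicle in S061 and S135 and Axum8 in S151, so control treatment and batch cannot be told apart there. The series addressed how the injured lung epithelium responds to bleomycin and how inhibition of IRE1α or TGFβ alters that response.

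Alveolar type 1 cells are the thin, flat cells that cover most of the gas exchange surface of the lung. They form a barrier with the capillaries beneath them and are lost or damaged in lung injury, after which alveolar type 2 cells can multiply and differentiate to replace them. Among the 10 genes, Ager encodes the receptor RAGE, the classical type 1 cell surface marker. Pdpn encodes podoplanin, a mucin-like membrane protein that lymphatic endothelium also makes, and Aqp5 encodes a water channel of alveolar and glandular epithelium. Cav1 encodes caveolin 1, the coat protein of caveolae, which is also abundant in endothelium. Emp2 encodes a 4-pass membrane protein and Clic5 a chloride intracellular channel family protein. Hopx encodes a homeodomain protein that does not bind DNA. Akap5 encodes a scaffold that holds protein kinase A, and Rtkn2 is used as a type 1 cell marker. Vegfa encodes the secreted growth factor through which type 1 cells signal to the capillary endothelium.

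The genes lie on 8 chromosomes of GRCm38.p6. Ager, Clic5 and Vegfa share chromosome 17, where Ager spans chr17:34597460-34600937, and Rtkn2 spans chr10:67979566-68058429. Promoter windows of 300 bases, from 250 bases before to 50 bases after an annotated start, were held by RefSeq for 9 of the 10 genes, in 12 windows. The windows of Hopx, Cav1 and Akap5 are shown because these genes passed the test in a treatment comparison below. Capitals mark ACGTG or its reverse complement CACGT, the core letters bound by XBP1, the transcription factor made through IRE1.
Hopx, chr5:77115074-77115373, minus strand: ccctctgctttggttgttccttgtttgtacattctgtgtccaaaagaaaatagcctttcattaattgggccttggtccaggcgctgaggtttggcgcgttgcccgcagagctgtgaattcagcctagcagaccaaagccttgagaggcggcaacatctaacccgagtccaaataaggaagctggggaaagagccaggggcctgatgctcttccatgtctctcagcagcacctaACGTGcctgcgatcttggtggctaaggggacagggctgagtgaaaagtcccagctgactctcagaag
Hopx, chr5:77095218-77095517, minus strand: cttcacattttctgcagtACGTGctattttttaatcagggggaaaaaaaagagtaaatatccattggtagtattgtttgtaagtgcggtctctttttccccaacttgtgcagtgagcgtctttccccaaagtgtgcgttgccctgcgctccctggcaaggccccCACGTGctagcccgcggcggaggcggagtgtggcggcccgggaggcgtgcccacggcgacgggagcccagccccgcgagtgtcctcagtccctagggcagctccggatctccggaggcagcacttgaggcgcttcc
Cav1, chr6:17306085-17306384, plus strand: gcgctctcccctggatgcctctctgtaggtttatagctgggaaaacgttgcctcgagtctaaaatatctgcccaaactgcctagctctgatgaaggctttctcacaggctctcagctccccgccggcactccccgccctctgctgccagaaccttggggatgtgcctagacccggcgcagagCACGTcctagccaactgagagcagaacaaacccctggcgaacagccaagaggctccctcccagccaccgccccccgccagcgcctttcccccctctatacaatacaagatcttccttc
Cav1, chr6:17307390-17307689, plus strand: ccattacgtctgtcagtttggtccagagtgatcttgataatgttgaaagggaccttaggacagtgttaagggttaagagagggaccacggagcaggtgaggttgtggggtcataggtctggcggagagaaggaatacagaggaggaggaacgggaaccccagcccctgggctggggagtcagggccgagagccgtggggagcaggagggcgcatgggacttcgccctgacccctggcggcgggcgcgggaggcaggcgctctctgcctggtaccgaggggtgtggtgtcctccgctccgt
Akap5, chr12:76324641-76324940, plus strand: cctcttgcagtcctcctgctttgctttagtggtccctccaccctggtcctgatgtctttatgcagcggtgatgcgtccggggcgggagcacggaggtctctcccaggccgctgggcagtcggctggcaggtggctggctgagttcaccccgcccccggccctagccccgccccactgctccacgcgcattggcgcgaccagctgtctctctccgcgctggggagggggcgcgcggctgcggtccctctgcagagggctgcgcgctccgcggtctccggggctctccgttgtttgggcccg
ACGTG on either strand was found in 6 of the 12 windows, from 5 of 9 genes (Pdpn, Hopx, Cav1, Aqp5 and Vegfa), against 19.6% of 32851 mouse promoter windows of the same length. Akap5, which was higher with KIRA8 in whole lung, had no match in its window. GGAATG, the core letters bound by TEAD factors, was found in 0 of the 12 windows, against 14.7% of all windows. Both motifs were searched after the expression values were known, and a match is only a description of the letters in these windows.

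Library totals ran from 7163613 to 51797377 counts. Levels are given as TMM-scaled CPM, which is CPM with each library's total adjusted by 1 edgeR scaling over all 48 libraries. Batch S061 stood apart, and the arms were spread unevenly over batches, so levels of the arms are compared within a batch. The fits instead give a single difference between arms over all batches, with batch as an added term. A fitted difference can therefore lie outside the differences found within the batches. In the epithelial libraries of S061, the 1340 genes that were at least 8-fold lower in epithelium than in whole lung of the saline mice held 5.02% to 10.3% of counts, against 0.249% to 0.900% in the other batches. A set of 146 genes was picked for at least 50 unscaled CPM in every S061 library and a median under 0.5 in the other libraries. A higher share of these genes in S061 follows from that choice, and only its size is described. They held 6.01% to 12.7% of the epithelial counts in S061 and at most 0.0529% elsewhere. In the whole lung libraries these 146 genes held 7.21% to 9.81% of counts in S061 and at most 0.846% elsewhere. S061 holds 3 of the 9 bleomycin control mice, 3 of the 5 KIRA8 mice and no saline mouse, and the part of these shares in the KIRA8 results was not tested. In bulk libraries, fewer type 1 cells and less RNA per type 1 cell cannot be told apart.

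Most of the 10 genes were more abundant in the epithelial libraries of the saline mice than in their whole lung libraries. At an adjusted p under 0.05, 7 of 10 were called, against 57.5% of the 14885 genes tested, of which 27.3% were called higher in epithelium and 30.3% lower. Ager, Aqp5, Rtkn2, Hopx, Pdpn and Akap5 were higher in epithelium and Cav1 was lower, while Clic5, Emp2 and Vegfa did not pass. The median log2 difference of the 10 genes was 1.32, beside -0.06 over all genes tested. Here and below, adjusted p-values are those of edgeR's quasi-likelihood test with Benjamini-Hochberg adjustment over all genes tested, and errors of log2 differences are standard errors.

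Ager was read at 8717, 7904 and 9637 scaled CPM in the epithelial libraries of saline mice 146, 152 and 153 of S135. In those of mice 230, 207 and 221 of S151 it was at 10634, 6857 and 7275. The whole lung libraries of the same 6 mice held 1681, 2226, 2103, 2147, 1403 and 1426 scaled CPM, so the compartments did not overlap. The epithelial level of Ager was 4.71 ± 0.605 times the whole lung level (SD, n = 6), with a fitted log2 difference of 2.17 ± 0.14 and an adjusted p of 2.39e-07. Aqp5 had a ratio of 3.65 ± 0.529 and a log2 difference of 1.80 ± 0.12 (adjusted p = 2.56e-07, edgeR). The ratio of Rtkn2 was 3.02 ± 0.740, that of Hopx 3.01 ± 1.36, that of Pdpn 2.71 ± 0.385 and that of Akap5 2.61 ± 0.908 (SD, n = 6 each), and all 6 mice were above 1 for each of these genes. These ratios overlapped between neighbouring genes, so Rtkn2, Hopx, Pdpn and Akap5 had no order beyond their spread.

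Cav1, which endothelium also makes, went the other way. Its epithelial libraries held 264, 247, 179, 589, 252 and 194 scaled CPM in mice 146, 152, 153, 230, 207 and 221, and the whole lung libraries held 357, 486, 443, 1006, 552 and 481. The epithelial level of Cav1 was below the whole lung level in 6 of 6 mice, at 0.516 ± 0.129 times (SD, n = 6), with a log2 difference of -1.04 ± 0.13 (adjusted p = 4.26e-05, edgeR). Cav1 was the highest of all saline libraries in mouse 230 in both compartments.

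Vegfa and Emp2 differed between batches in which compartment was higher. The epithelial level of Vegfa was 2.40 ± 0.340 times the whole lung level in the 3 saline mice of S135 and 0.623 ± 0.0853 times in the 3 of S151 (SD, n = 3 each). Vegfa alone was read at 1094, 1069 and 1271 scaled CPM in the S135 epithelial libraries and at 294, 232 and 265 in those of S151, with no overlap. Its whole lung levels lay between 389.6 and 532 in both batches. Fitted within S135 alone Vegfa was higher in epithelium by 1.09 ± 0.11 on the log2 scale (adjusted p = 2.37e-06), and within S151 alone its log2 difference was -0.71 ± 0.12 (adjusted p = 0.00174). Emp2 had ratios of 0.691 ± 0.0425 in S135 and 1.18 ± 0.205 in S151. Its log2 difference was -0.70 ± 0.10 within S135 (adjusted p = 5.49e-05) and 0.21 ± 0.13 within S151 (adjusted p = 0.211). Both fits within a batch were added after the values had been seen. The compartment results also depended on the scaling. With library totals alone the median of all 14885 genes moved to -0.84, Akap5 was at 0.49 (adjusted p = 0.0733) and Emp2 was at -0.97 (adjusted p = 0.000168), and 12.2% of the calls over all genes were higher in epithelium instead of 47.4%.

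**Figure D1:**
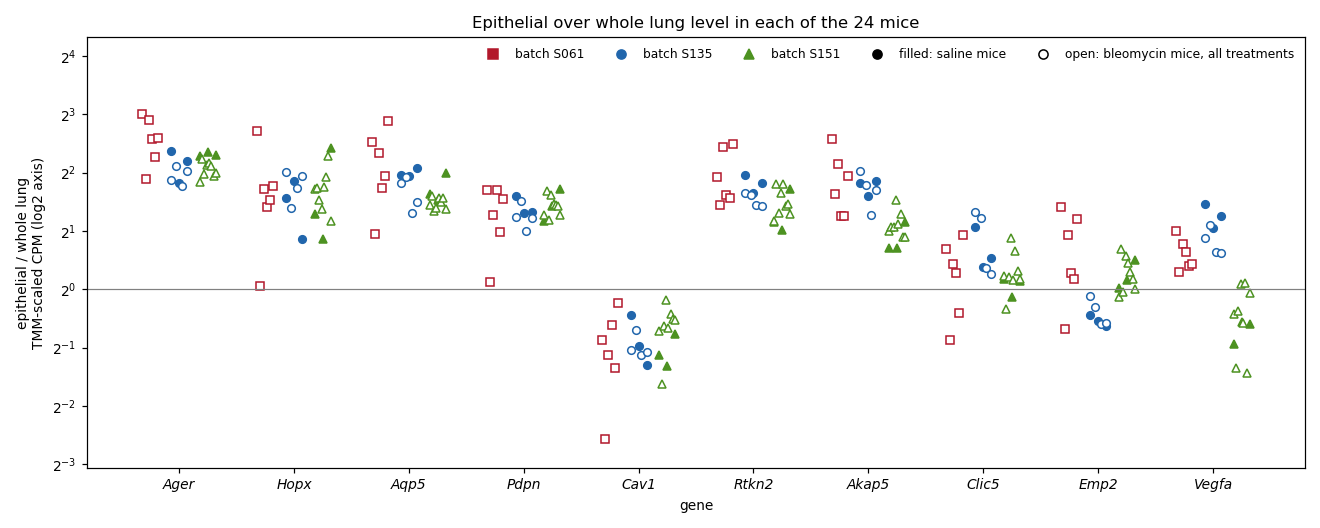
Epithelial level divided by whole lung level (TMM-scaled CPM, log2 axis) of the 10 genes in each of the 24 mice, coloured and shaped by batch, with filled points for saline mice and open points for bleomycin mice of all treatments. In saline mice Ager lies between 3.55 and 5.18 and Cav1 between 0.402 and 0.740, while the Vegfa points of S135 (2.07 to 2.75) and S151 (0.525 to 0.680) lie on opposite sides of 1.

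Levels of the same arm also differed between batches. In the whole lung libraries of bleomycin control mice, Rtkn2 was read at 5.30, 8.58 and 4.44 scaled CPM in S061, at 84.9 and 192 in S135 and at 90.2, 79.8, 96.1 and 67.2 in S151. The S061 mice were thus all below the other 6, with a mean of 6.10 against 138 in S135 and 83.3 in S151. Hopx was at 19.6, 75.4 and 61.8 in the S061 whole lung libraries, all below the 260.2 to 561 of the other batches. The S061 control mice lay below all others of their arm for 9 of 10 genes in whole lung (all but Pdpn) and for 5 of 10 in epithelium (Ager, Hopx, Rtkn2, Akap5 and Clic5). The same share over all genes was not computed, so these counts cannot be read as a trait of the 10 genes. Aqp5 instead stood out in S151, at 3.38 times the S135 mean in epithelium and 4.48 times in whole lung.

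**Figure D2:**
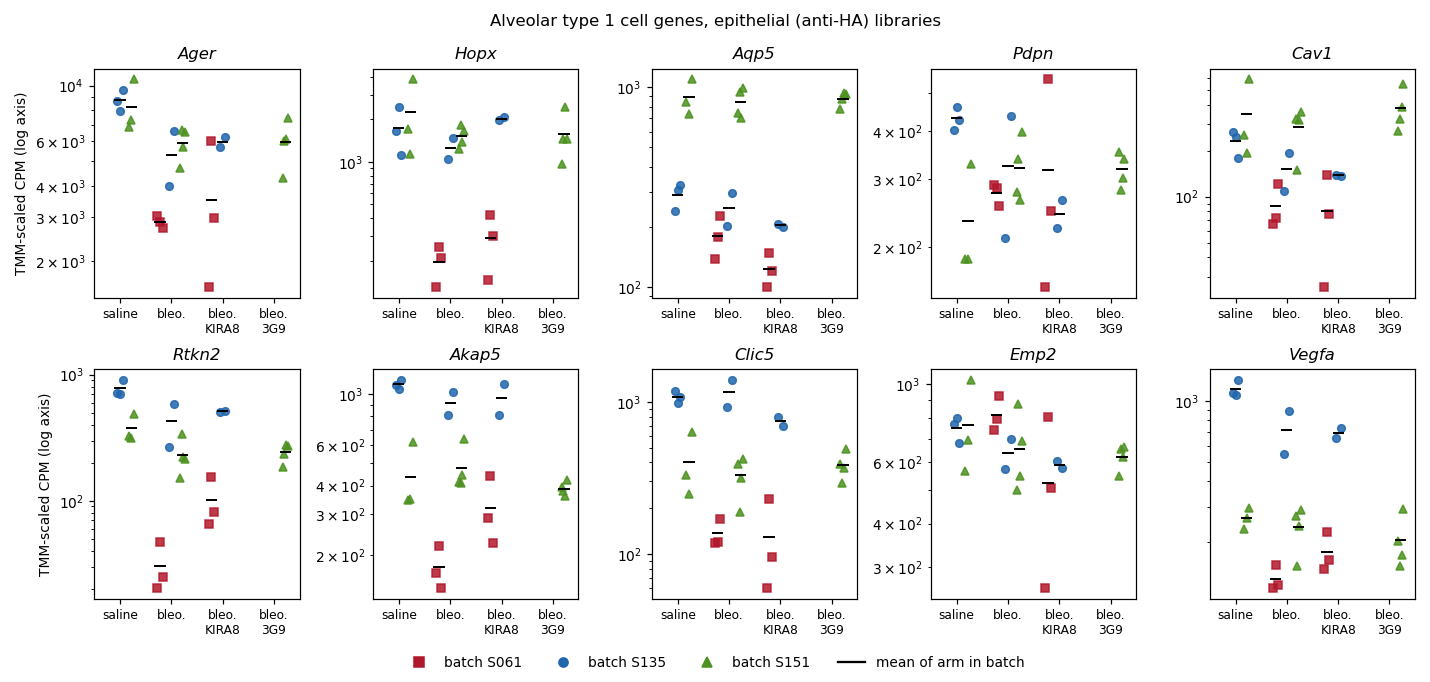
TMM-scaled CPM (log axis) of the 10 genes in each of the 24 epithelial libraries by arm, with batch shown by colour and shape and a line at the mean of each arm in a batch. The S061 mice, present only in the bleomycin control and KIRA8 arms, lie below all others for Hopx, at 129 to 420.5, and the S151 mice lie above all others for Aqp5, at 699 to 1101.

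Bleomycin was accompanied by lower levels of Rtkn2 in the epithelial libraries, while the other 9 genes did not pass the test. Of the 10 genes, 1 was called, against 8.72% of the 17291 genes tested, with 4.17% called lower and 4.55% higher. All 10 fitted differences were below 0, with a median of -0.32 beside -0.0016 over all genes, of which 50.1% were below 0. With library totals alone the median of all genes moved to 0.37, 5 of the 10 genes were above 0 and the median of the 10 was 0.02, so relative to all genes the 10 lay lower by 0.35 in place of 0.32. That setting turned 52.2% of calls being higher into 96.8%. The direction below 0 of the 10 genes is therefore relative to the scaling.

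Rtkn2 was at 721, 704 and 909.8 scaled CPM in the epithelial libraries of the S135 saline mice and at 268 and 585 in the 2 bleomycin control mice of S135. In S151 it was at 491, 326 and 317 in saline mice and at 223, 336, 214 and 150.96 in bleomycin control mice. The S135 groups did not overlap, and in S151 control mouse 206 lay among the saline mice. The fit gave a log2 difference of -0.98 ± 0.27 (adjusted p = 0.0214, edgeR), a fold of 0.506. Within the batches the difference of mean log2 values was -0.96 in S135 and -0.74 in S151. The call was lost without control mouse 148 (-0.91, adjusted p = 0.0561) and without saline mouse 230 (-0.89, adjusted p = 0.0600). It was also lost in 5 of 8 other settings, those with library totals alone (-0.66, adjusted p = 0.0737), no filter on low counts (0.0658), the 2 arms alone (-0.78, 0.0502), S135 alone (-0.84, 0.256) and S151 alone (-0.72, 0.285).

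Ager was at 4008 and 6626 scaled CPM in the bleomycin control epithelium of S135, below all 3 saline mice of that batch. In S151 its bleomycin control mice were at 5708, 6687, 6572 and 4706, also below all 3 saline mice. The log2 difference of Ager was -0.63 ± 0.22, and its adjusted p of 0.0711 (edgeR) missed the threshold. Vegfa was at -0.48 ± 0.18 (adjusted p = 0.0947), with means of 1144 and 719 scaled CPM in saline and bleomycin control mice of S135 and of 264 and 238 in S151. The remaining 7 genes were between -0.52 for Hopx and -0.06 for Pdpn. The groups did not overlap for 4 of 10 genes in S135 (Ager, Rtkn2, Akap5 and Vegfa), where 28% of all genes did not, and for 1 of 10 in S151 (Ager), where 13.4% did not.

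In whole lung, 3 of the 10 genes fell with bleomycin. Rtkn2, Cav1 and Hopx were called lower, against 4.14% of 19345 genes called lower and 10.1% called in either direction. All 10 fitted differences were below 0, with a median of -0.47 beside -0.01 over all genes, of which 51.3% were below 0. At an unadjusted p under 0.05 there were 8 of the 10 genes, where 25.8% of all genes were. DESeq2 called 7 of 10, adding Ager, Clic5, Emp2 and Vegfa, and it called 2975 of 19345 genes in all.

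Rtkn2 was at 186, 223 and 257 scaled CPM in the whole lung of the S135 saline mice and at 84.9 and 192 in the bleomycin control mice of S135. In S151 the saline mice were at 157, 147 and 149, above all 4 bleomycin control mice at 90.2, 79.8, 96.1 and 67.2. The fitted log2 difference was -1.03 ± 0.27 (adjusted p = 0.0228, edgeR). The within-batch differences of mean log2 levels were smaller, at -0.78 in S135 and -0.86 in S151. With the saline and bleomycin control arms alone Rtkn2 was at -0.81 ± 0.18 (adjusted p = 0.00854). Its call was lost without control mouse 148 (-0.97, adjusted p = 0.0529) and in S135 alone (-0.66, adjusted p = 0.505).

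Cav1 was at 357, 486 and 443 scaled CPM in the S135 saline mice and at 226 and 311 in the bleomycin control mice, with no overlap. In S151 the saline mice were at 481, 552 and 1006 and the bleomycin control mice at 493, 483, 459 and 529, and these overlapped. The log2 difference of Cav1 was -0.62 ± 0.18 (adjusted p = 0.0278, edgeR). Cav1 lost its call without saline mouse 230, the mouse at 1006 (-0.46, adjusted p = 0.102), and without control mouse 148 or saline mouse 152 or 153 (adjusted p = 0.0712, 0.0596 and 0.0525), and without batch S061 (-0.57, adjusted p = 0.0822). It was also lost with library totals alone (-0.52, adjusted p = 0.0693), in S135 alone (-0.66, 0.104) and in S151 alone (-0.49, 0.272).

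Hopx was at 559.5, 678 and 623 scaled CPM in the S135 saline mice and at 260.2 and 561 in the bleomycin control mice, and the 561 of mouse 149 lay among the saline values. In S151 the saline mice were at 629, 707 and 719 and the bleomycin control mice at 483, 433, 549 and 374, with no overlap. The log2 difference of Hopx was -0.72 ± 0.23 (adjusted p = 0.0485, edgeR). Its call was lost with library totals alone (adjusted p = 0.0884), no filter on low counts (0.0978), a sex term (0.0621), the 2 arms alone (-0.60, 0.128), S135 alone (-0.58, 0.471) and S151 alone (-0.60, 0.0709), and it held with DESeq2 and without S061. It was also lost in 11 of the 15 fits that left out 1 mouse, where its log2 difference ran from -0.91 to -0.64 and the highest adjusted p was 0.109. The 11 were those without control mouse 45, 148, 208R, 225 or 204 or saline mouse 146, 152, 153, 221, 207 or 230.

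Pdpn moved in opposite directions in the batches, in both compartments. In whole lung the bleomycin control mice of S135 were at 89.3 and 153 scaled CPM against 133, 187 and 170.5 in saline mice, a difference of -0.46 on the log2 scale. In S151 they were at 116, 146, 106 and 115 against 69.3, 82.8 and 99.9, a difference of 0.52 with no overlap. In epithelium the differences of Pdpn were -0.50 and 0.49. The fitted values over all batches were -0.04 ± 0.19 in whole lung and -0.06 ± 0.24 in epithelium, and the difference between batches was not tested. Over all 10 genes, 4 did not overlap in S135 (Ager, Cav1, Akap5 and Emp2), where 30% of all genes did not, and 4 did not overlap in S151 (Hopx, Pdpn, Rtkn2 and Vegfa), where 18.7% did not.

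**Figure D3:**
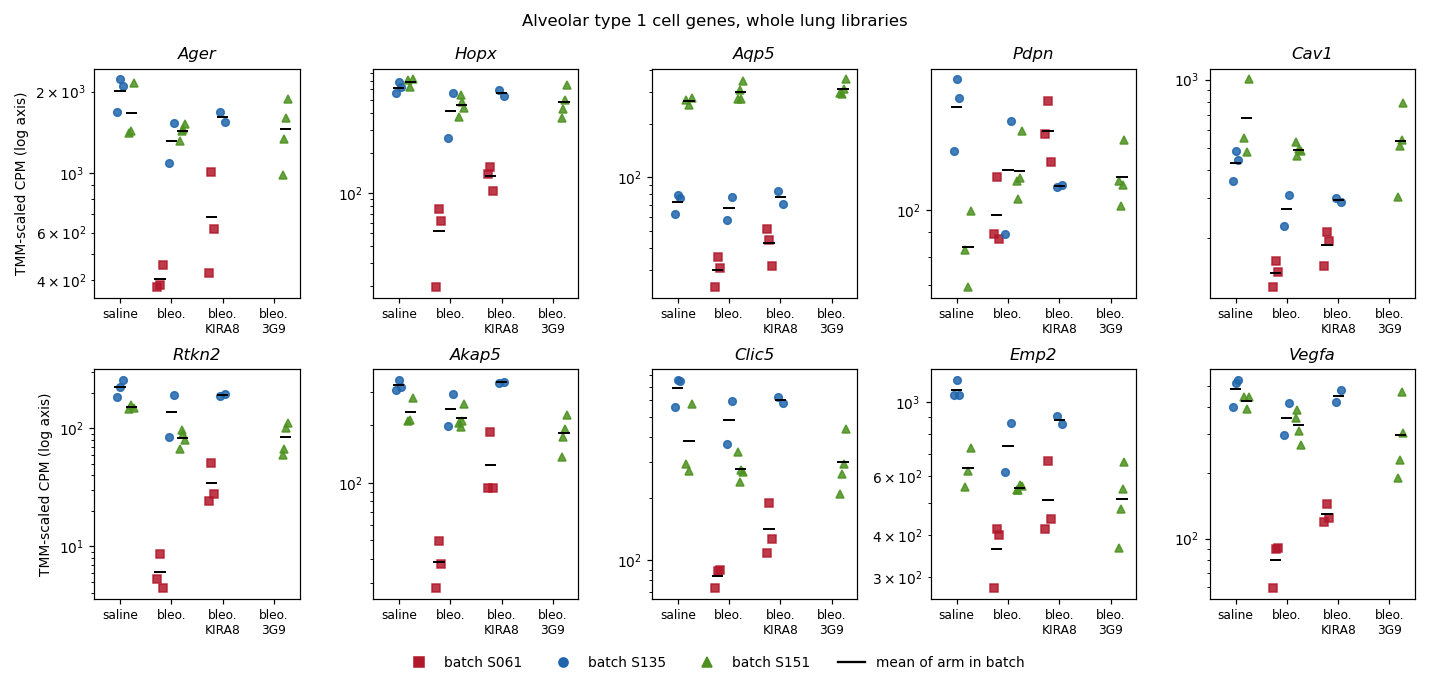
TMM-scaled CPM (log axis) of the 10 genes in each of the 24 whole lung libraries by arm, with batch shown by colour and shape and a line at the mean of each arm in a batch. Rtkn2 in the bleomycin control arm spans 4.44 to 8.58 in S061 and 67.2 to 192 in the other batches.

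The bleomycin response did not differ detectably between compartments for any of the 10 genes. A test of the difference itself, with the mouse as a block, called 0 of 10, against 0.343% of 19808 genes, with 0.257% higher and 0.0858% lower. None had an unadjusted p under 0.05, and DESeq2 also called 0. The differences, epithelium minus whole lung, ran from -0.14 for Ager to 0.40 ± 0.29 for Hopx (adjusted p = 0.697), with 7 of 10 above 0. A p that misses the threshold does not show that the responses were equal.

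With KIRA8, Rtkn2 and Akap5 rose in whole lung relative to bleomycin controls. These 2 of 10 genes were called higher, against 0.315% of 19345 genes called higher and 0.527% called in either direction. All 10 fitted differences were above 0, with a median of 0.51 beside -0.01 over all genes, of which 48.1% were above 0. At an unadjusted p under 0.05 there were 8 of the 10, where 15.4% of all genes were. The differences were larger in batch S061 than in S135 for all 10 genes, with medians of 0.69 and 0.33.

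Rtkn2 was at 24.04, 50.6 and 27.7 scaled CPM in the whole lung of KIRA8 mice 20, 32 and 41 of S061, all above the 5.30, 8.58 and 4.44 of the control mice. In S135 the KIRA8 mice were at 187 and 194, beside 84.9 and 192 in the controls, and these overlapped. The fitted log2 difference of Rtkn2 was 1.62 ± 0.33 (adjusted p = 0.0418, edgeR), a fold of 3.08. The difference was 2.28 in S061 and 0.57 in S135. With KIRA8, Rtkn2 in S061 remained below the level of every control mouse of the other batches.

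Akap5 was at 93.7, 184 and 94.2 scaled CPM in the S061 KIRA8 mice, all above the 28.0, 49.5 and 37.5 of their controls. In S135 the KIRA8 mice were at 336 and 339 and the controls at 198 and 292, again with no overlap. The fitted log2 difference of Akap5 was 1.12 ± 0.23 (adjusted p = 0.0386, edgeR), with 1.63 in S061 and 0.49 in S135. Hopx came next in size, at 0.96 ± 0.26 (adjusted p = 0.0760), with 140.4, 158 and 104 scaled CPM in the S061 KIRA8 mice above 19.6, 75.4 and 61.8 in the controls. DESeq2 called Hopx as well (adjusted p = 0.00600).

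Both calls were lost without batch S061 or without single mice. Without S061 the log2 difference of Rtkn2 was 0.54 ± 0.27 (adjusted p = 0.488) and that of Akap5 0.37 ± 0.21 (adjusted p = 0.525), and no gene of the 10 was called. Each of the 2 calls was lost in 8 of the 14 fits that left out 1 mouse, those without control mouse 17, 31, 45, 148, 204 or 208R or KIRA8 mouse 32 or 41. Without KIRA8 mouse 32 Rtkn2 was at 1.32 (adjusted p = 0.0823) and Akap5 at 0.84 (adjusted p = 0.0784). The calls were also lost with library totals alone (adjusted p = 0.0517 for both), without a filter on low counts (adjusted p = 0.0586 and 0.0514) and with the KIRA8 and control arms alone (adjusted p = 0.121 and 0.0857). Within S135 alone neither was called (adjusted p = 0.844 for Rtkn2 and 0.570 for Akap5), and within S061 alone Rtkn2 was called (2.48, adjusted p = 0.0348) and Akap5 was not (1.70, adjusted p = 0.0665). The groups did not overlap for 7 of 10 genes in S061 (all but Ager, Aqp5 and Cav1), where 19.8% of all genes did not, and for 3 of 10 in S135 (Ager, Akap5 and Vegfa), where 36.3% did not. Pdpn was the only gene with a difference below 0 in a batch, at -0.06 in S135, and without S061 it was at -0.46 ± 0.28 (adjusted p = 0.570). That fit also drew on the mice of S151, which has no KIRA8 mouse, so its value is not the difference within S135.

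**Figure D4:**
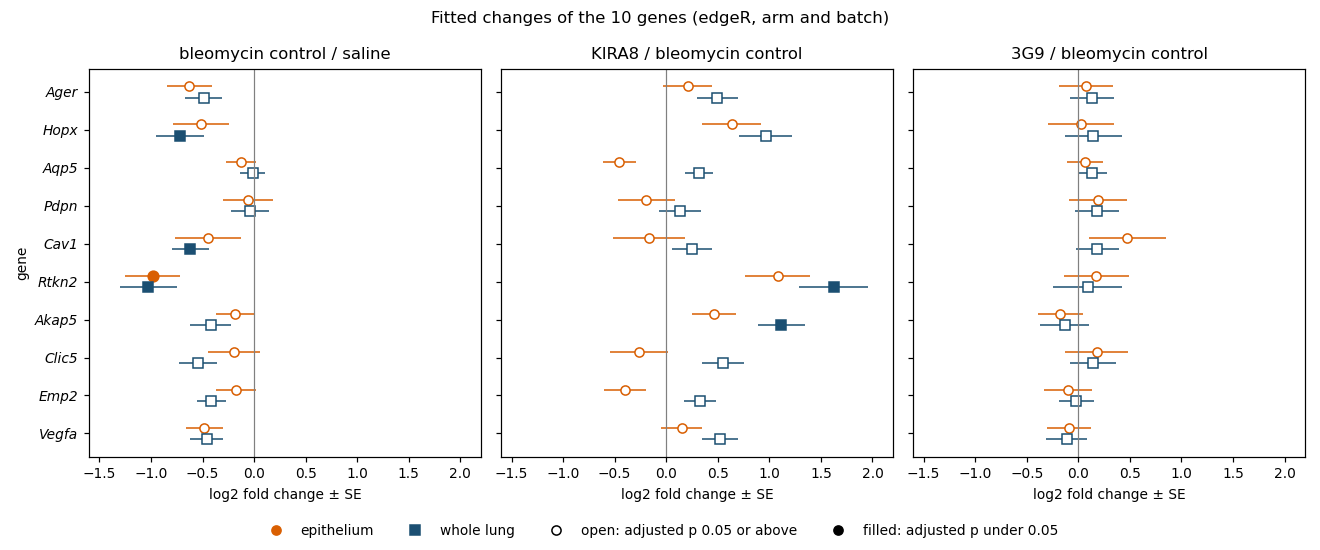
Fitted log2 fold changes with standard errors of the 10 genes for bleomycin control against saline, KIRA8 against bleomycin control and 3G9 against bleomycin control, in epithelium (circles) and whole lung (squares), filled where the adjusted p was under 0.05. In whole lung all 10 points are below 0 with bleomycin and above 0 with KIRA8, while the epithelial points with KIRA8 range from -0.46 for Aqp5 to 1.08 for Rtkn2.

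The bleomycin control mice are shared between the bleomycin and the KIRA8 comparison, so opposite signs in the 2 are not independent of each other. In whole lung the bleomycin and KIRA8 differences were -1.03 and 1.62 for Rtkn2, -0.72 and 0.96 for Hopx, and -0.42 and 1.12 for Akap5. For Cav1 they were -0.62 and 0.25.

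In the epithelial libraries KIRA8 gave no call among the 10 genes, against 0.26% of 17291 genes called, with 0.0868% higher and 0.174% lower. Of the 10, 5 were above 0 and 5 below, with a median of -0.01 beside 0.02 over all genes. At an unadjusted p under 0.05 there were 4, where 11.5% of all genes were. Of these 4, Rtkn2, Hopx and Akap5 were above 0 and Aqp5 below. DESeq2 called Rtkn2 (1.08, adjusted p = 0.0168), and 247 of 17291 genes in all. Rtkn2 was at 65.7, 155 and 82.1 scaled CPM in the S061 KIRA8 mice against 20.2, 46.7 and 24.8 in controls, with no overlap, and at 509 and 519 against 268 and 585 in S135. The edgeR estimate for Rtkn2 was 1.08 ± 0.31 (adjusted p = 0.159), and without S061 it was 0.23 ± 0.30. Aqp5 was at 99.7, 149 and 121 in the S061 KIRA8 mice against 138, 178 and 227 in controls, and at 207 and 201 against 203 and 296 in S135, with overlap in both batches. The log2 difference of Aqp5 was -0.46 ± 0.16 (adjusted p = 0.239).

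Hopx in S135 was at 1986 and 2076 scaled CPM in KIRA8 epithelium, above 1051 and 1478 in controls, while Clic5 was at 802 and 698, below 925 and 1399. The groups did not overlap for 2 of 10 genes in S061 (Rtkn2 and Akap5), where 28.2% of all genes did not, and for 2 of 10 in S135 (Hopx and Clic5), where 33.6% did not. The S061 KIRA8 epithelium was spread widely. Mouse 32 was highest of the 3 for all 10 genes and mouse 20 lowest for 9 of 10, so that Ager ran from 1578 to 6009 scaled CPM and Cav1 from 25.5 to 139. Ranks of these mice over all genes were not computed, so the counts cannot be read as a trait of the 10 genes. In mouse 20 the genes depleted from saline epithelium held 10.3% of counts and the 146 S061 genes 12.7%. In mouse 32 they held 7.42% and 9.25%. Both shares were higher in every S061 KIRA8 epithelial library than in every S061 control. The depleted genes held 7.42% to 10.3% with KIRA8 and 5.02% to 7.34% in controls. The 146 S061 genes held 9.25% to 12.7% with KIRA8 and 6.01% to 8.59% in controls. In S061 whole lung the arms overlapped for both shares. The part of these shares in the levels, and in the KIRA8 differences between arms and between compartments, was not tested.

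The fitted difference of the KIRA8 response between compartments, epithelium minus whole lung, was below 0 for each of the 10 genes, but none passed the test. In S135 the mean epithelial over whole lung ratio of Hopx was higher with KIRA8, at 3.60 against 3.34 in controls. The test called 0 of 10, against 0.0505% of 19808 genes (0.0101% higher and 0.0404% lower), with all 10 estimates below 0 and a median of -0.54 beside 0.01 over all genes, of which 49.4% were below 0. At an unadjusted p under 0.05 there were 8 of 10, where 11.7% of all genes were. Clic5 had an epithelial over whole lung ratio of 1.63 ± 0.279 in the S061 controls and 0.838 ± 0.341 in the S061 KIRA8 mice (SD, n = 3 each). In S135 its ratios were 2.33 and 2.51 in the controls and 1.19 and 1.29 in the KIRA8 mice. The log2 difference of responses for Clic5 was -0.92 ± 0.20 (adjusted p = 0.0569, edgeR).

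Aqp5 had ratios of 6.05 ± 1.18 in S061 controls and 3.04 ± 0.985 in S061 KIRA8 mice (SD, n = 3 each), and its difference of responses was -0.76 ± 0.16 (adjusted p = 0.0519). Emp2 was at -0.80 ± 0.20 (adjusted p = 0.0906, edgeR). Its ratios were 2.29 ± 0.379 in S061 controls and 0.989 ± 0.317 in S061 KIRA8 mice (SD, n = 3 each). In S135 its mean ratios were 0.869 in controls and 0.669 in KIRA8 mice (n = 2 each). Without S061 the estimate for Emp2 was -0.25. Akap5 was at -0.66 ± 0.15 (adjusted p = 0.0729). These estimates lay close to the threshold and crossed it under some settings. DESeq2 called 5 of the 10 (Aqp5, Rtkn2, Akap5, Clic5 and Emp2), and 332 of 19808 genes in all. Library totals alone and the fit without a filter each called 4 (Aqp5, Akap5, Clic5 and Emp2). Over all genes these settings called 71 of 19808 and 172 of 31722. Without S061 no gene was called, 9 of 10 estimates were below 0 with a median of -0.30, Hopx was at 0.17 ± 0.37 and Clic5 at -0.79 ± 0.27 (adjusted p = 0.552). Without the mouse block none was called and the median was -0.49.

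**Figure D5:**
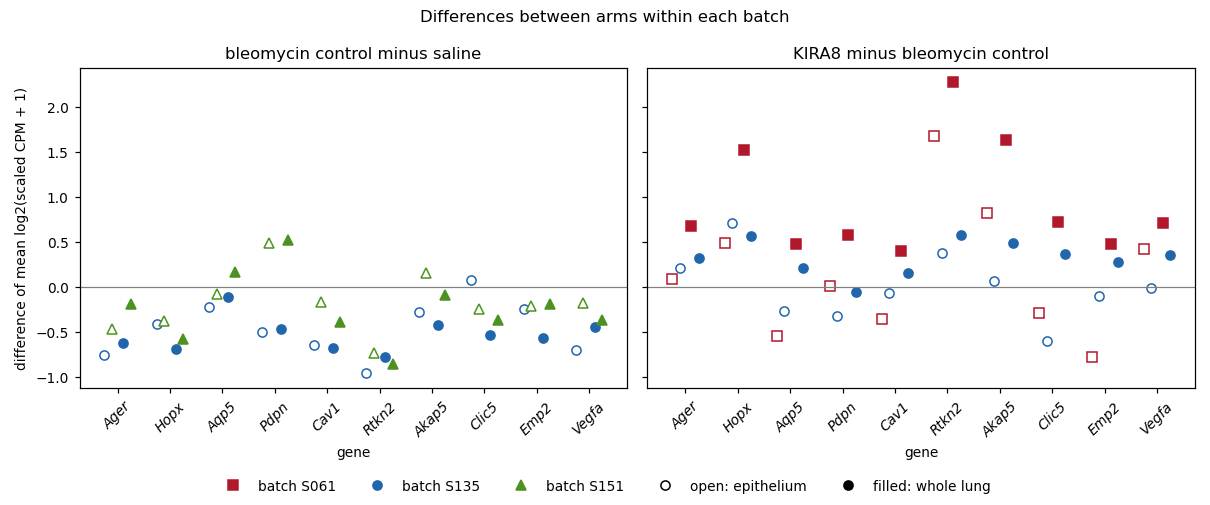
Difference of mean log2(scaled CPM + 1) between arms within each batch for the 10 genes, for bleomycin control against saline (left) and KIRA8 against bleomycin control (right), with open points for epithelium and filled points for whole lung and with batch shown by colour and shape. For KIRA8 the whole lung points of S061 reach 2.28 for Rtkn2 where the S135 point is at 0.57, and for bleomycin the Pdpn points of S135 lie below 0 and those of S151 above 0 in both compartments.

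With the 3G9 antibody no gene of the 10 was called in either compartment. In epithelium edgeR called 0 of 17291 genes, with 566 at an unadjusted p under 0.05, and DESeq2 called 36 genes. In whole lung edgeR called 38 of 19345 genes, or 0.196%, with 0.165% higher and 0.031% lower, and DESeq2 called 222. None of the 10 genes had an unadjusted p under 0.05 in either compartment, and DESeq2 called none of them. The fitted differences ran from -0.17 for Akap5 to 0.48 ± 0.37 for Cav1 in epithelium and from -0.13 for Akap5 to 0.19 ± 0.21 for Cav1 in whole lung.

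All 3G9 mice were in S151, so they are set beside the 4 bleomycin control mice of that batch. The whole lung column of 3G9 mouse 218 carries a suffix, FT, that the labels do not explain, and no gene of the 10 was called in whole lung without that mouse. Ager was at 6154, 4307, 7457 and 6032 scaled CPM in 3G9 epithelium and at 5708, 6687, 6572 and 4706 in control epithelium. Rtkn2 in whole lung was at 59.1, 101, 66.9 and 111 with 3G9 and at 90.2, 79.8, 96.1 and 67.2 in controls, while the 3 saline mice of the batch were at 147 to 157. Cav1 in whole lung ran from 304 to 785 with 3G9 and from 459 to 529 in controls. Differences of mean log2 levels within S151 lay between -0.28 for Akap5 in whole lung and 0.43 for Cav1 in epithelium. The 3G9 and control groups overlapped for all 10 genes in both compartments, where 2.14% of all genes in epithelium and 2.96% in whole lung did not overlap. The fitted difference of Rtkn2 was 0.18 ± 0.32 in epithelium and 0.09 ± 0.33 in whole lung. No gene of the 10 passed the test of a difference in the 3G9 response between compartments, which called 0 of 19808 genes with edgeR (448 at an unadjusted p under 0.05) and 0 with DESeq2.

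How far the 10 genes ranked the mice of an arm and batch alike varied. Of the 2 bleomycin control mice of S135, mouse 149 was higher than mouse 148 for 10 of 10 genes in both compartments. Saline mouse 230 was highest of the 3 saline mice of S151 for 10 of 10 genes in epithelium and 9 of 10 in whole lung. Among the 3G9 mice, mouse 228 was highest for 9 of 10 genes in whole lung and mouse 218 lowest for 8 of 10. Other groups were split. KIRA8 mice 154 and 155 of S135 were each higher for 4 or 6 genes in both compartments, control mouse 206 of S151 was highest for 4 and lowest for 4 in epithelium, and the S135 saline epithelium was highest for 2, 3 and 5 genes in mice 146, 152 and 153. The same ranks over all genes were not computed. Across the 24 libraries of a compartment, centred within batch, each gene's log2 level was set against the mean of the other 9. Pearson's r in whole lung was highest for Emp2 (0.91), Akap5 (0.91), Clic5 (0.87), Rtkn2 (0.87), Ager (0.87) and Hopx (0.87), and lowest for Aqp5 (0.60) and Pdpn (0.55). In epithelium Ager was highest (0.87) and Rtkn2 lowest (0.51). These values are descriptions over libraries that share their scaling and their arms. Outside the list, the tested gene most like the mean of the 10 was ENSMUSG00000027524 in epithelium (r = 0.90) and ENSMUSG00000020577 in whole lung (r = 0.96), and the files do not pair these identifiers with symbols.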

How the data were processed

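The deposited file is a table of raw read counts per gene for 42548 Ensembl genes in 48 libraries. Per the submitters' processing notes, reads were aligned with STAR 2.5.2b to GRCm38; no source used here names the counting program. Mice were assigned to arms, batches and compartments from the labels, and the 2 libraries of a mouse share its labelled identifier, which is the source of the pairing. Mice are separate animals. In the comparisons of arms, p-values measure the spread between mice around the arm and batch terms. With the mouse as a block, they measure how the difference between the libraries of a mouse varied from mouse to mouse. In the saline mice that spread includes any difference between batches.

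Genes were filtered with filterByExpr, scaled by TMM and tested with edgeR 4.0.16 (R 4.3.3, limma 3.58.1) by a robust quasi-likelihood fit. Arms were compared within each compartment over 24 libraries with arm and batch as terms. Compartments were compared in the 12 saline libraries, and responses between compartments over 48 libraries, with the mouse as a block. P-values were Benjamini-Hochberg adjusted over all genes tested, and a gene was called at an adjusted p under 0.05. Standard errors are the log2 fold change divided by the square root of the F statistic. Within-batch differences are of log2(scaled CPM + 1). The fitting was tried on counts simulated with the same dispersion for all genes and without batch or mouse effects. It therefore does not test how the fits handle such effects. Alternatives were DESeq2 1.42.0, library totals without TMM factors, no filter, a sex term, only the 2 arms compared, single batches, no mouse block and leaving out each mouse. Leaving out S061 from the KIRA8 comparisons and from the tests between compartments was chosen after seeing the data. So were the saline fits within 1 batch.

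All 10 genes are named in every comparison, called or not. The genes and lists were chosen with earlier results of these data known. The reference table matched 0 of the 42548 identifiers, so lists of cell type markers other than the 10 genes were not used here. The labelled compartments were therefore not checked against markers of other cell types.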

Additional observations from a re-analysis of the deposited data

Results flagged for a closer look

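Of 80 groups of 4 to 9 mice examined, 4 held 1 mouse far from the others. Chance gives about 1 in 20 groups, which is also the share found here. Pdpn in epithelium of the KIRA8 arm was at 545 scaled CPM in mouse 32, against 265 in the next mouse. Cav1 in saline epithelium was at 589 in mouse 230, against 264 in the next, and Cav1 in saline whole lung was at 1006 in the same mouse, against 552. Rtkn2 in whole lung of the bleomycin control arm was at 192 in mouse 149, against 96.1 in the next. These groups span batches.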

How the results depend on the processing

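Counts of the 10 genes called are given first. For bleomycin in epithelium (1 in the fit reported) DESeq2 called 2, and library totals alone, no filter, only the 2 arms, S135 alone and S151 alone each called 0, with 0 to 1 when leaving out a mouse. For bleomycin in whole lung (3) DESeq2 called 7, library totals 1, S135 alone 0 and S151 alone 1, and no filter, the sex term, only the 2 arms and the fit without S061 each called 2, with 0 to 5 when leaving out a mouse (0 without control mouse 148, 5 without 149). For KIRA8 in epithelium (0) DESeq2 called 1. For KIRA8 in whole lung (2) library totals, no filter, only the 2 arms, S135 alone and the fit without S061 each called 0 and S061 alone 1, with 0 to 3 when leaving out a mouse. For saline compartments (7) S135 alone called 10, where 6771 of 14529 genes were called, and S151 alone 8, where 9218 of 15853 were. Clic5 was called in S135 alone (0.50, adjusted p = 0.00569, edgeR). Leaving out a mouse in the saline comparison gave 7 to 8. For the KIRA8 response between compartments (0) DESeq2 called 5, library totals 4 and no filter 4, with 0 to 2 when leaving out a mouse. For the other comparisons leaving out a mouse gave 0. The cause was not tested.

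Vegfa in saline mice reversed within S151 alone, to -0.71 from 0.23. Among 1940 values of single genes under alternatives, 1842 kept their direction or lay on the same side of the threshold, 62 lost a call and 35 gained one, and 104 changed sign with neither value called. Without the mouse as a replicate block the counts of the 10 genes were the same, with 7 called in saline mice and 0 in each test between compartments. In saline mice that fit also added a compartment by batch term, so the part of the block alone was not tested.

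Over all genes, for bleomycin in epithelium 1508 were called in the fit reported, 2126 by DESeq2, 3622 with library totals, 213 in S135 and 321 in S151. In whole lung 1962 were called, 2975 by DESeq2, 79 in S135 and 774 in S151. For KIRA8 in epithelium 45 were called, 247 by DESeq2, 161 with library totals (1.86% higher, in place of 33.3%), 9 with only the 2 arms, 134 in S061, 15 in S135 and 2 without S061. In whole lung 102 were called, 701 by DESeq2, 20 with library totals, 54 without a filter, 66 with sex, 22 with only the 2 arms, 0 in S135 (1312 at an unadjusted p under 0.05) and 3 without S061. For 3G9, DESeq2 called 36 in epithelium where edgeR called 0, and in whole lung 38 were called, 222 by DESeq2 and 0 with only the 2 arms (1026 at an unadjusted p under 0.05). For the bleomycin response between compartments 68 were called, 266 by DESeq2, 245 with library totals, 170 without a filter, 9 without the block and 32 without S061. For the KIRA8 response 10 were called, 332 by DESeq2, 71 with library totals, 172 without a filter, 2 without the block and 2 without S061. Leaving out a mouse in the tests between compartments held the trended dispersion of the full fit.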
